A study of Mus musculus with 1307 samples.

Results

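The genes described here are the nuclear genes for the subunits of the respiratory chain and of ATP synthase, followed through the cell types of the mouse heart. They were taken by symbol: every gene named as a subunit of complex I (Nduf), III (Uqcr), IV (Cox4 to Cox8) or V (Atp5), without pseudogenes, without Ndufa4l2, and with counts in at least 10 cells. Of 46517 genes in the table, 77 met the rule. Complex I had 35 of them, complex III 8, complex IV 17 and complex V 17. Another 6 genes matched by symbol but had counts in fewer than 10 cells (Cox6c2, Cox7b2, Cox8c, Ndufa11b, Ndufb4c and Ndufs6b) and were left out. Ndufa4, which is named after complex I but belongs to complex IV, was counted in complex IV. Cox7a2l (a factor that joins complexes III and IV into supercomplexes) and Atp5s (a factor that couples ATP synthase) are not core subunits but met the rule and were kept.

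Oxidative phosphorylation passes electrons from NADH and succinate through complexes I to IV to oxygen, pumps protons across the inner mitochondrial membrane, and lets complex V make ATP as they return. Most subunits are encoded in the nucleus and a few in mitochondrial DNA, so the complexes are built from 2 genomes. Several small complex IV subunits come in alternative isoforms. Cox6a2, Cox7a1 and Cox8b are the forms of heart and skeletal muscle, and Cox6a1, Cox7a2 and Cox8a the widespread forms. Cox4i2 can replace Cox4i1, the subunit through which ATP inhibits the enzyme, and is known from lung and from oxygen-sensing cells. Ndufa4l2 is the hypoxia-induced paralogue of Ndufa4 and was followed beside it although it is not one of the 77.

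Hearts of adult mice, 8 to 30 weeks old, were dissociated with enzymes, and single cells were sorted into plates and sequenced with Smart-Seq2, which reads full-length cDNA and uses no molecular identifiers. In total 1307 cells of 8 mice were sequenced. Double-reporter mice (ACTA2GFP:CSPG4dsRED) carried a green reporter driven by the promoter of Acta2, which smooth muscle cells use, and a red reporter driven by that of Cspg4, which mural cells and some glia use. They gave 368, 245 and 336 cells for mice 1, 2 and 3. Inbred C57BL/6 mice gave 347 cells of mouse 1 and 5 of 2 others. A CSPG4dsRED and an ACTA2GFP mouse gave 3 cells each. No group received a treatment. The labels call mouse 3 of the double-reporter line female, whereas the design text calls the animals male. The median cell held 340988, 220866 and 208888 counts in the double-reporter animals 1 to 3, and 307957 in C57BL/6 mouse 1. All cells of each of these 4 mice were on 1 plate, so mouse and plate cannot be told apart, and the gate used for sorting is not given in the sources used here.

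Each cell was placed in a class from marker genes alone, none of which is a subunit or pathway gene described below. A cell took the class with the largest share of its markers at 100 CPM or more, where CPM is a gene's counts per 1000000 counts of the cell, if that share was at least 0.5 and led the next class by at least 0.2. This gave smooth muscle-like cells in mice 1, 2 and 3 (131, 80 and 20), pericyte-like cells (51 and 15 in mice 1 and 2, and 8 in mouse 3, too few for a sum), fibroblast-like cells (81, 112 and 249) and Schwann-like cells (33, 12 and 16). Smooth muscle cells contract the vessel wall, pericytes sit on capillaries, and Schwann cells sheathe nerves. A mixed mural class of 29 cells in mouse 1 carried markers of both smooth muscle cells and pericytes. C57BL/6 mouse 1 gave 231 endothelial-like and 45 endocardial-like cells, and mouse 3 gave 30 macrophage-like cells. In all, 123 cells stayed unassigned. The classes are ranges of a marker score: 39 of 232 smooth muscle-like, 5 of 75 pericyte-like, 29 of 445 fibroblast-like and 6 of 64 Schwann-like cells lay near the cut. Smooth muscle markers summed to between 17025 and 21662 CPM in smooth muscle-like cells and to 2380 and 3074 CPM in pericyte-like cells, and pericyte markers to between 435 and 727 CPM and to 12383 and 13768 CPM. Fibroblast markers summed to between 1404 and 3173 CPM in smooth muscle-like, 2015 and 5054 CPM in pericyte-like and between 2486 and 4513 CPM in Schwann-like cells, against 14724 to 21565 CPM in fibroblast-like cells.

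Much of what follows turns on 2 pairs of paralogues, which a count table separates only as far as their sequences differ. Stretches of 60 coding bases from the most similar part of each pair are shown for this reason, 5′ to 3′, as in the GENCODE M21 transcripts of the GRCm38 build, with the bases that differ within a pair in capitals.
Cox4i1: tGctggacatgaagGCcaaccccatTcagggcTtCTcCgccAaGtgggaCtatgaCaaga
Cox4i2: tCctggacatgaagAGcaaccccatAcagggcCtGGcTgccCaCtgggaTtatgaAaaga
Ndufa4: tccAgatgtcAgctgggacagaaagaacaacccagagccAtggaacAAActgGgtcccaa
Ndufa4l2: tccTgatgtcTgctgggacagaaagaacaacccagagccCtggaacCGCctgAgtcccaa
Over the whole coding sequence the Cox4i pair was identical at 70.3% of aligned bases, and the longest run shared by the 2 transcripts was 14 bases. The Ndufa4 pair was identical at 71.5%, with a longest run of 28 bases shared by the transcripts. Cox4i1 (ENSMUSG00000031818) lies at chr8:120668222-120674207 on the plus strand and Cox4i2 (ENSMUSG00000009876) at chr2:152754173-152765037 on the plus strand. Ndufa4 (ENSMUSG00000029632) lies at chr6:11900292-11907497 on the minus strand.

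The 77 genes were detected widely. A cell had counts for a median of 60 of them, and 72 of the 77 had counts in at least 0.5 of all cells. The exceptions were the muscle isoforms Cox6a2, Cox7a1 and Cox8b, the testis-type isoform Cox6b2, and Atp5s. Levels per kilobase of transcript were averaged over the 11 sums of smooth muscle-like, pericyte-like, fibroblast-like and Schwann-like cells of the double-reporter mice. Complex I genes ranged from 17.3 to 311 CPM per kb (median 112) and complex III genes from 58.0 to 340 (median 188). Complex IV genes ranged from 4.93 to 599 (median 167) and complex V genes from 8.44 to 738 (median 182). The lowest complex I value was that of Ndufb2, with a mean of 75.8 CPM on a transcript of 4371 bases. The highest levels per kilobase were those of Atp5b, the catalytic beta subunit of ATP synthase (738 CPM per kb), Cox4i1 (599), Cox8a (543) and Cox6a1 (466). Within complex I they were those of Ndufb9 (311), Ndufb10 (238) and Ndufs7 (221), and within complex III those of the hinge subunit Uqcrh (340), Uqcr11 (236) and the core subunit Uqcrc1 (219).

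Smooth muscle-like cells devoted the largest share of their counts to the 77 genes among the classes with cells in several mice. Summed over the genes, the level was 17638, 15229 and 20991 CPM in smooth muscle-like cells of mice 1, 2 and 3 (17953 ± 2894, SD, n = 3). It was 12974 and 11172 CPM in pericyte-like cells of mice 1 and 2. In fibroblast-like cells it was 11190, 6627 and 9576 CPM (9131 ± 2314, SD, n = 3), and in Schwann-like cells 8986, 7152 and 9694 CPM (8611 ± 1312, SD, n = 3). Every smooth muscle-like sum lay above every sum of the other 3 classes, pericyte-like sums overlapped those of fibroblast-like cells, and the fibroblast-like and Schwann-like sums overlapped. Within a mouse, the smooth muscle-like sum was 1.58, 2.30 and 2.19 times the fibroblast-like one, 1.96, 2.13 and 2.17 times the Schwann-like one, and 1.36 times the pericyte-like one in both mice with both classes. The Schwann-like sum was 0.803, 1.08 and 1.01 times the fibroblast-like one, on either side of parity.

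The classes with a sum in 1 mouse only had no replicate. The sum was 13773 CPM in the mixed mural class, 12487 CPM in endothelial-like cells, 11418 CPM in endocardial-like cells and 8295 CPM in macrophage-like cells. Exact Poisson 95% intervals, which cover counting error only, were 12461 to 12513 CPM in endothelial-like cells, 11366 to 11470 CPM in endocardial-like cells and 8215 to 8376 CPM in macrophage-like cells. Only 3 cells were classed as cardiomyocyte-like, 2 of them near the cut, and their pooled sum was 40299 CPM. CPM is a share of all counts of a cell, so a difference in the sum can also come from the other genes. With 3 mice, no exact permutation test of a single sum could reach p = 0.05, and the sums are given without one.

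**Figure D1:**
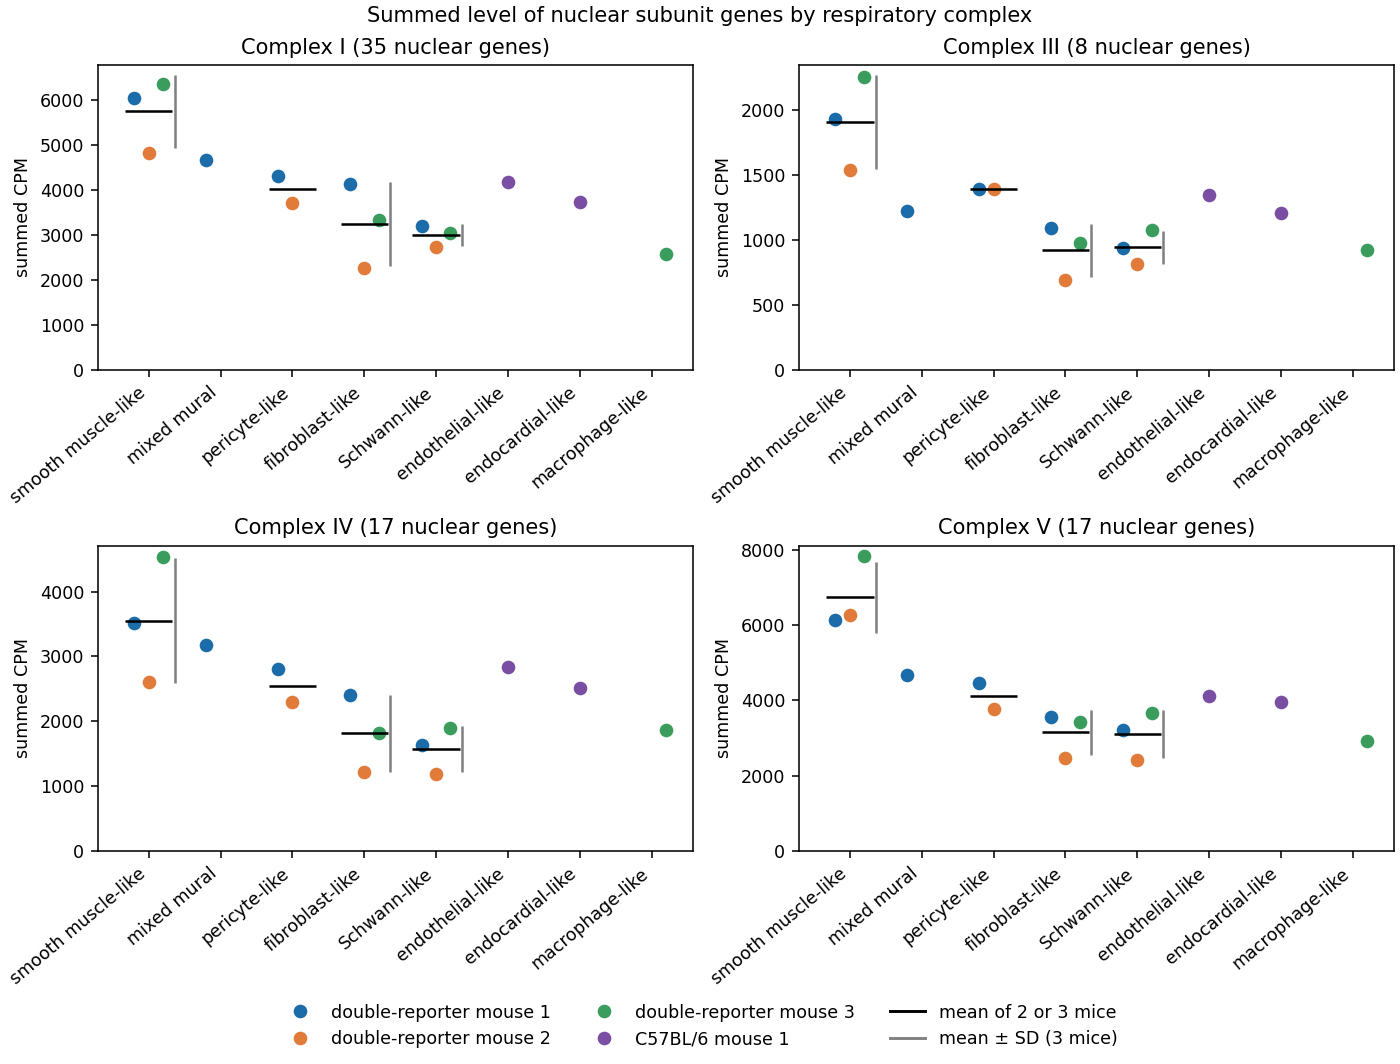
Summed CPM (y axis, from 0) of the nuclear genes of complexes I, III, IV and V by cell class (x axis). Each point is the sum of 1 mouse and class, the black line the mean of 2 or 3 double-reporter mice and the grey bar the mean ± SD of 3. In each panel the smooth muscle-like points lie above the pericyte-like, fibroblast-like and Schwann-like points of the same mouse.

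The genes of each complex had higher sums in smooth muscle-like than in fibroblast-like cells. Complex V genes summed to 6135, 6265 and 7836 CPM in smooth muscle-like cells of mice 1 to 3 against 3562, 2469 and 3437 CPM in fibroblast-like cells. Complex I genes summed to 6054, 4825 and 6367 CPM against 4139, 2256 and 3337 CPM, complex III genes to 1933, 1537 and 2252 CPM against 1089, 689 and 979 CPM, and complex IV genes to 3516, 2602 and 4537 CPM against 2400, 1213 and 1822 CPM. For each complex the lowest smooth muscle-like sum lay above the highest fibroblast-like sum. Cardiomyocyte markers also differed, with 714, 528 and 264 CPM in smooth muscle-like against 164, 113 and 105 CPM in fibroblast-like cells, and their part in the sums was not tested. Across the named classes other than the 3 cardiomyocyte-like cells, complex I held between 30.3% and 38.2% of the sum, complex III between 8.89% and 12.5%, complex IV between 16.6% and 23.1% and complex V between 31.8% and 41.1%.

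Subunits encoded in mitochondrial DNA were counted separately. Their sum was 13100, 18859 and 18020 CPM in smooth muscle-like cells, 10889 and 17538 CPM in pericyte-like cells, 8102, 9411 and 9371 CPM in fibroblast-like cells and 7811, 17713 and 10671 CPM in Schwann-like cells. The ratio of the nuclear to the mitochondrial sum was 1.35, 0.808 and 1.16 in smooth muscle-like cells and 1.38, 0.704 and 1.02 in fibroblast-like cells, and thus spread more between mice than between these 2 classes. It was lowest in mouse 2 for each of the 4 classes, down to 0.404 in Schwann-like cells. Counts of mt-Co2, mt-Co3 and mt-Nd4l were at or near 0 in this table, and the sum rests on the other mitochondrial genes.

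To test single genes, counts were summed per mouse and class and fitted with edgeR's quasi-likelihood test with the mouse as a block, over 17403 genes. All 77 genes passed the filter on low counts. Against fibroblast-like cells, smooth muscle-like cells had higher levels of 4 of the 77 genes at a Benjamini-Hochberg adjusted p under 0.05, and lower levels of none, beside 1.24% of all tested genes called higher. Among the 4 were Atp5b, Cox8a and Uqcrfs1. In CPM, 67 of the 77 lay above the fibroblast-like level in each of the 3 mice, as did 18.0% of all tested genes. The median log2 change was 0.88 over the 77 genes, 73 of them positive, and -0.16 over all tested genes. Among genes with an average log2 CPM of at least 5 the medians were 0.95 over the 71 subunit genes, all positive, and 0.02 over all 6612 such genes.

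Atp5b had 1904, 2224 and 2979 CPM in smooth muscle-like cells of mice 1 to 3 and 868, 669 and 904 CPM in fibroblast-like cells. The groups did not overlap, and its log2 change was 1.61 (SE 0.21, adjusted p = 0.00514). Cox8a, the widespread form of the smallest complex IV subunit, had 449, 338 and 774 CPM against 232, 89.1 and 214 CPM, again without overlap (log2 change 1.62, SE 0.31, adjusted p = 0.0268). Uqcrfs1, the Rieske iron-sulfur protein of complex III, had 279, 226 and 298 CPM against 118, 83.9 and 87.8 CPM (log2 change 1.53, SE 0.33, adjusted p = 0.0478). By the fit these genes were between 2.90-fold and 3.07-fold higher, and they had their smooth muscle-like values above every fibroblast-like value.

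By complex, 12 of 35 complex I, 6 of 8 complex III, 9 of 17 complex IV and 10 of 17 complex V genes had an unadjusted p under 0.05, as did 2362 of all 17403 tested genes. The median log2 change was 0.79 for complex I, 1.13 for complex III, 0.97 for complex IV and 0.88 for complex V. Genes that did not pass included Atp5a1, the catalytic alpha subunit (1186, 1446 and 1474 CPM against 582, 523 and 643 CPM, adjusted p = 0.0931), Atp5c1, the rotating gamma subunit (475, 522 and 591 CPM against 343, 254 and 263 CPM, adjusted p = 0.172), and Cox4i1 (651, 543 and 742 CPM against 455, 290 and 366 CPM, adjusted p = 0.127). Their groups also did not overlap. The same held for Uqcrc1 (497, 422 and 451 CPM against 293, 248 and 275 CPM, adjusted p = 0.127), Ndufb9 (335, 292 and 353 CPM against 190, 145 and 150 CPM, adjusted p = 0.0923) and Uqcrh (282, 216 and 410 CPM against 171, 88.1 and 161 CPM, adjusted p = 0.145). The 4 genes with a negative log2 change were Cox6a2, Cox6b2, Cox8b and Atp5s, all with an average log2 CPM under 5 and none called. Leaving out mouse 1, 2 or 3 left 1, 0 and 1 of the 77 called, and none was called among cells at or below the median of cardiomyocyte-marker counts. How many of all tested genes these fits called is not given here, so the lower counts are not a result about the 77 genes alone. Over the 77 genes the median log2 change was 1.07, 0.79 and 0.83 without mouse 1, 2 or 3, and 0.84 in the cells low in cardiomyocyte markers, where that over all tested genes was -0.38.

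Fibroblast-like cells of mouse 2 had the lowest sum of all, and their short genes were low. Between mouse 2 and mouse 1 the median log2 difference in fibroblast-like cells was -1.23 for the 36 subunit genes under 800 bases and -0.75 for the 36 longer ones, against -0.84 and -0.12 for all short and long genes at 20 CPM or more. In smooth muscle-like cells the same values were -0.58 and -0.38 for subunit genes and -0.54 and -0.11 for all genes. The part of this length difference in the fibroblast comparison was not tested.

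**Figure D2:**
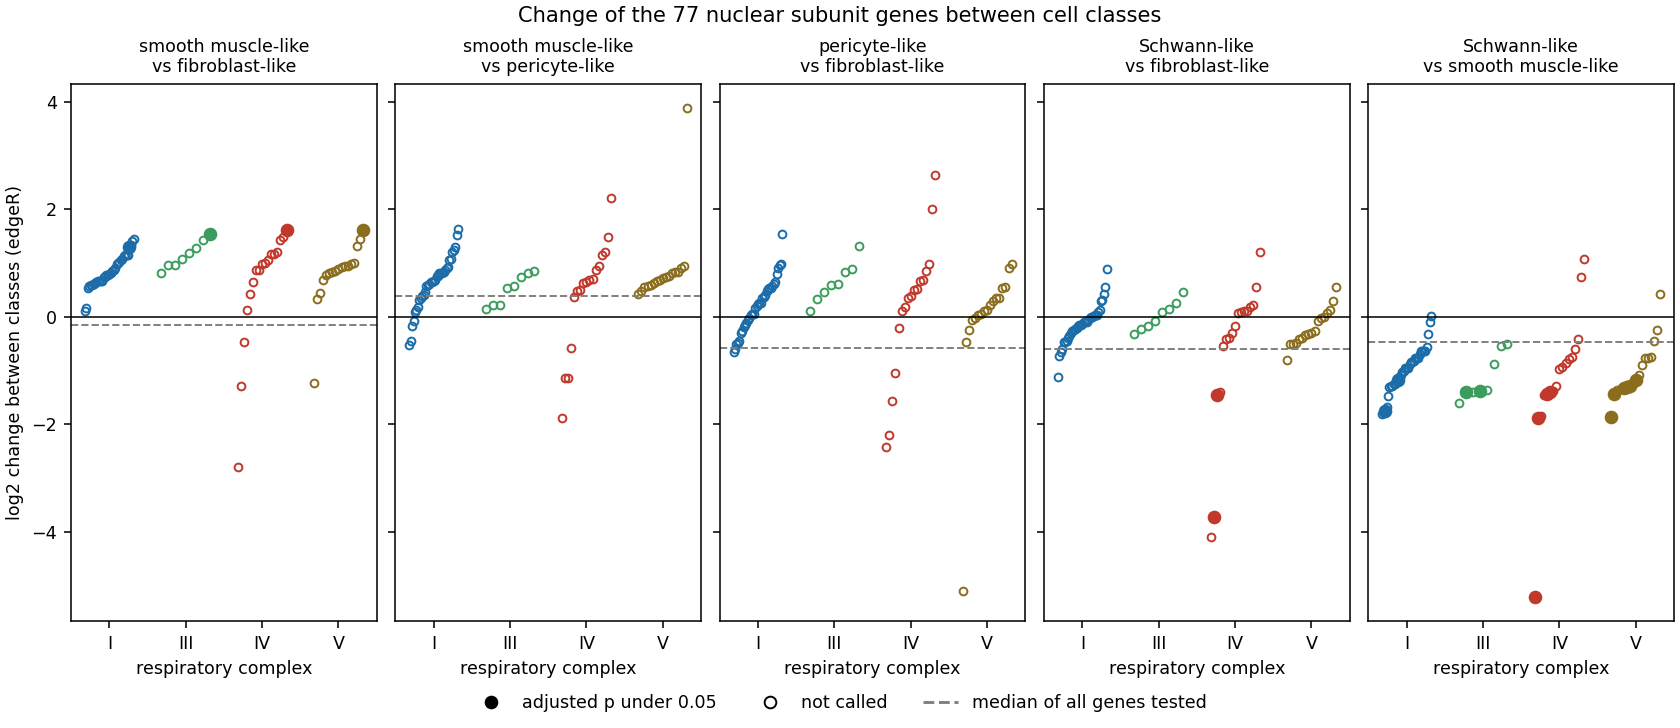
Log2 change from edgeR (y axis) of each of the 77 genes by respiratory complex (x axis) in 5 comparisons between cell classes, filled where the adjusted p was under 0.05, with the median of all 17403 tested genes as a dashed line. Against fibroblast-like cells nearly all smooth muscle-like values are positive with 4 called, and against smooth muscle-like cells nearly all Schwann-like values are negative with 14 called.

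The other genes of energy metabolism gave the following counts in the same comparison. Of the mitochondrially encoded subunits 5 of 12 tested genes were called higher, among them mt-Nd5 (log2 change 1.18, SE 0.19, adjusted p = 0.0128) and mt-Nd2 (1.17, SE 0.25, adjusted p = 0.0462). Of a list of complex II genes, cytochrome c and Cyc1 (cytochrome c1, a complex III subunit whose symbol the rule does not match), 1 of 6 was higher, Sdhc, the membrane anchor of succinate dehydrogenase, with 498, 503 and 603 CPM against 182, 143 and 158 CPM (log2 change 1.79, SE 0.31, adjusted p = 0.0165). Of the tricarboxylic acid cycle 1 of 16 was higher, Idh3b, a subunit of mitochondrial isocitrate dehydrogenase, with 411, 451 and 599 CPM against 142, 189 and 167 CPM (log2 change 1.59, SE 0.32, adjusted p = 0.0346). Their medians were 0.91, 1.25 and 1.06, near that of the 77 genes. None of 43 assembly factors and none of 14 regulators of mitochondrial biogenesis passed (0 and 1 at an unadjusted p under 0.05), with medians of 0.21 and 0.41. Of 92 tested genes of the cytosolic ribosomal protein pattern none passed, with a median of -0.08. The pattern also takes in 10 S6 kinase genes.

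Smooth muscle-like and pericyte-like cells could be compared in mice 1 and 2 only. None of the 77 genes passed in edgeR's quasi-likelihood test with Benjamini-Hochberg adjustment, beside 0.621% of all tested genes called in either direction. An unadjusted p under 0.05 was reached by 10 of the 77 and by 2325 of the 17403 tested genes, and DESeq2 called 3 of the 77. The share of all tested genes called by DESeq2 is not given here, so its count cannot be read as an excess. In CPM, 63 of the 77 lay above the pericyte-like level in both mice, as did 35.7% of all tested genes. The median log2 change was 0.66 over the 77 genes (69 positive) and 0.38 over all tested genes, and among genes with an average log2 CPM of at least 5 it was 0.68 and 0.16. Without mouse 1 the median was 0.55 over the 77 genes and 0.73 over all tested genes, so that the order of the 2 medians rests on mouse 1. All 17 complex V genes lay above in both mice. Atp5b had 1904 and 2224 CPM in smooth muscle-like cells against 1607 and 1449 CPM in pericyte-like cells (log2 change 0.63, SE 0.24, adjusted p = 0.31).

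A few complex IV genes stood at the ends of this comparison. Ndufa4 had 167 and 111 CPM in smooth muscle-like cells of mice 1 and 2 against 13.1 and 42.1 CPM in pericyte-like cells (log2 change 2.22, SE 0.73, adjusted p = 0.254). The groups did not overlap, and in the pericyte-like cells of mouse 2 a single cell held 86.2% of the Ndufa4 counts. Cox7a2l had 286 and 225 CPM against 145 and 78.4 CPM (log2 change 1.48, SE 0.43, adjusted p = 0.207). Cox4i2 pointed the other way, with 275 and 287 CPM against 651 and 901 CPM (log2 change -1.14, SE 0.81, adjusted p = 0.599). The comparison rests on 2 mice and on 15 pericyte-like cells in mouse 2, and smooth muscle markers were at 2380 and 3074 CPM in the pericyte-like sums.

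Pericyte-like cells against fibroblast-like cells also gave no called gene among the 77, beside 1.68% of all tested genes called in either direction. An unadjusted p under 0.05 was reached by 7 of the 77 and by 2774 of the 17403 tested genes, and DESeq2 called 10 of the 77. Here too the share of all tested genes called by DESeq2 is not given, and its count cannot be read as an excess. In CPM, 28 of the 77 lay above the fibroblast-like level in both mice, as did 20.2% of all tested genes. Below it in both mice lay 9 of the 77, against 37.6% of all tested genes. The median log2 change was 0.29 over the 77 genes (55 positive) and -0.58 over all tested genes. Among genes with an average log2 CPM of at least 5 the medians were 0.33 over the subunit genes and -0.13 over all such genes. The median over the 77 was 0.64 without mouse 1, -0.03 without mouse 2 and -0.04 among cells low in cardiomyocyte markers. The medians over all tested genes in those 3 settings were -1.15, -0.57 and -0.51. Cox4i2 had 651 and 901 CPM in pericyte-like cells against 221 and 138 CPM in fibroblast-like cells of the same mice (log2 change 2.63, SE 0.76, adjusted p = 0.143). Atp5b had 1607 and 1449 CPM against 868 and 669 CPM (log2 change 0.98, SE 0.23, adjusted p = 0.0773). Both genes were without overlap in these mice but not called. The lists of other energy genes had no called gene except Ndufa4l2 in either pericyte comparison, where it passed against fibroblast-like cells.

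Schwann-like cells differed from fibroblast-like cells in 2 of the 77 genes, both lower and both of complex IV, beside 3.83% of all tested genes called lower. In CPM, 14 of the 77 lay below the fibroblast-like level in each of the 3 mice, against 31.6% of all tested genes. The median log2 change was -0.16 over the 77 genes and -0.60 over all tested genes. Among genes with an average log2 CPM of at least 5 the medians were -0.11 and -0.13, and without mouse 1 the median over the 77 was 0.02. Cox4i2 had 12.7, 2.57 and 18.7 CPM in Schwann-like cells of mice 1 to 3 against 221, 138 and 45.2 CPM in fibroblast-like cells. Its groups did not overlap, and it was 13.2-fold lower (log2 change -3.72, SE 0.79, adjusted p = 0.0268). Cox7a2l had 82.9, 92.5 and 63.4 CPM against 256, 210 and 199 CPM, also without overlap (log2 change -1.47, SE 0.36, adjusted p = 0.0490). Without mouse 1, 2 or 3, 0, 0 and 1 of the 77 genes were called, and the calls over all tested genes in these fits are not given here.

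Some genes of the ribosomal protein pattern were also lower in Schwann-like cells. Of 92 tested, 11 were called, among them Rps7 (log2 change -1.87, SE 0.33, adjusted p = 0.0116) and Rps3a1 (-1.65, SE 0.38, adjusted p = 0.0366), and the median over the 92 was -0.94, beside -0.60 over all tested genes. Their sum was 9332, 6691 and 9413 CPM in Schwann-like cells against 19362, 10870 and 19407 CPM in fibroblast-like cells. The assembly factor Bcs1l, which inserts the Rieske protein into complex III, had 42.1, 18.7 and 26.5 CPM in fibroblast-like cells and 2, 0 and 0 counts in Schwann-like cells (adjusted p = 0.0137). The other lists gave no called gene apart from Ndufa4l2.

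Against smooth muscle-like cells, Schwann-like cells had lower levels of 14 of the 77 genes and higher levels of none, beside 4.64% of all tested genes called lower. In CPM, 62 of the 77 lay below the smooth muscle-like level in each of the 3 mice, against 24.5% of all tested genes. The median log2 change was -1.01 over the 77 genes (4 positive) and -0.48 over all tested genes. Among genes with an average log2 CPM of at least 5 the medians were -1.08 over the subunit genes and -0.17 over all such genes. The 14 were 2 of 35 complex I genes, 2 of 8 complex III genes, 4 of 17 complex IV genes and 6 of 17 complex V genes. This comparison shares its smooth muscle-like and Schwann-like sums with those above, and its calls are not independent of them.

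Large changes were in Cox4i2, Cox7a2l, Atp5g3 and Atp5f1. Cox4i2 had 275, 287 and 617 CPM in smooth muscle-like cells against 12.7, 2.57 and 18.7 CPM in Schwann-like cells (37.1-fold lower, log2 change -5.21, SE 0.81, adjusted p = 0.00436). Cox7a2l had 286, 225 and 338 CPM against 82.9, 92.5 and 63.4 CPM (log2 change -1.89, SE 0.37, adjusted p = 0.0139). In both genes the lowest smooth muscle-like value lay above the highest Schwann-like one. Atp5g3, one of the genes for the c-ring subunit, had 236, 167 and 328 CPM against 49.6, 44.3 and 133 CPM (log2 change -1.86, SE 0.37, adjusted p = 0.0149). Atp5f1, of the peripheral stalk, had 274, 301 and 376 CPM against 126.4, 111.8 and 125.7 CPM (log2 change -1.44, SE 0.29, adjusted p = 0.0161). In none of these 4 genes did the groups overlap.

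Another 9 called genes had log2 changes between -1.44 and -1.18. They were Cox8a and Uqcrfs1, Atp5b (1904, 2224 and 2979 CPM against 1070, 977 and 914 CPM, adjusted p = 0.00469), Atp5a1, Atp5c1, Uqcrh and Ndufb9, and also Cox6c and Atp5j, which fall outside the rule for named genes. The other 2 c-ring genes, Atp5g1 (101, 68.6 and 94.8 CPM against 96.2, 44.3 and 102 CPM, adjusted p = 0.822) and Atp5g2 (81.1, 47.9 and 106 CPM against 25.3, 36.0 and 29.6 CPM, adjusted p = 0.254), did not pass. Without mouse 1, 2 or 3, 2, 0 and 2 of the 77 genes were called, none with at least 20 cells per sum, and 9 without the mouse as a block. The calls over all tested genes in these fits are not given here. Over the 77 genes the median was between -1.06 and -1 on the log2 scale without mouse 1, 2 or 3 and was -1.13 with at least 20 cells per sum.

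The lists of other energy genes held few calls. Of the tricarboxylic acid cycle 3 of 16 were lower in Schwann-like cells, among them citrate synthase Cs (505, 466 and 498 CPM against 158, 98.3 and 242 CPM, log2 change -1.68, SE 0.38, adjusted p = 0.0274) and Idh3b (-1.52, SE 0.32, adjusted p = 0.0205). Sdhc of complex II was lower (-1.77, SE 0.31, adjusted p = 0.00806), 1 of 6 genes of its list. None of 12 mitochondrially encoded genes passed (7 at an unadjusted p under 0.05, as were 3765 of all 17403 tested genes). Of the assembly factors 1 of 43 (Bcs1l) and of the regulators 1 of 14 (Ppargc1b, a coactivator of mitochondrial biogenesis) were lower. Ppargc1b had 28.6, 35.7 and 41.9 CPM in smooth muscle-like cells and 2, 0 and 1 counts in Schwann-like cells (adjusted p = 0.0301). Of 92 genes of the ribosomal protein pattern 8 were lower, among them Rps7 (-1.79, SE 0.33, adjusted p = 0.0105) and Rps3a1 (-1.71, SE 0.38, adjusted p = 0.0258).

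The Cox4i pair differed widely between the classes. Of the summed Cox4i1 and Cox4i2 counts per base, Cox4i2 held 30.6%, 35.5% and 46.5% in smooth muscle-like cells of mice 1 to 3 (37.5% ± 8.1, SD, n = 3) and 58.1% and 74.8% in pericyte-like cells. It held 33.7%, 33.2% and 11.4% in fibroblast-like cells and 3.81%, 0.70% and 3.99% in Schwann-like cells. Pericyte-like shares were above all others and Schwann-like shares below all others among these 4 classes, while smooth muscle-like and fibroblast-like shares overlapped. The share was 50.3% in the mixed mural class, 10.3% in endothelial-like cells (9.89% by counts alone, exact binomial 95% interval 9.61% to 10.2%), 0.23% in endocardial-like cells and 0.27% in macrophage-like cells. Binomial intervals cover counting error only, since copies made by PCR are not independent molecules.

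**Figure D3:**
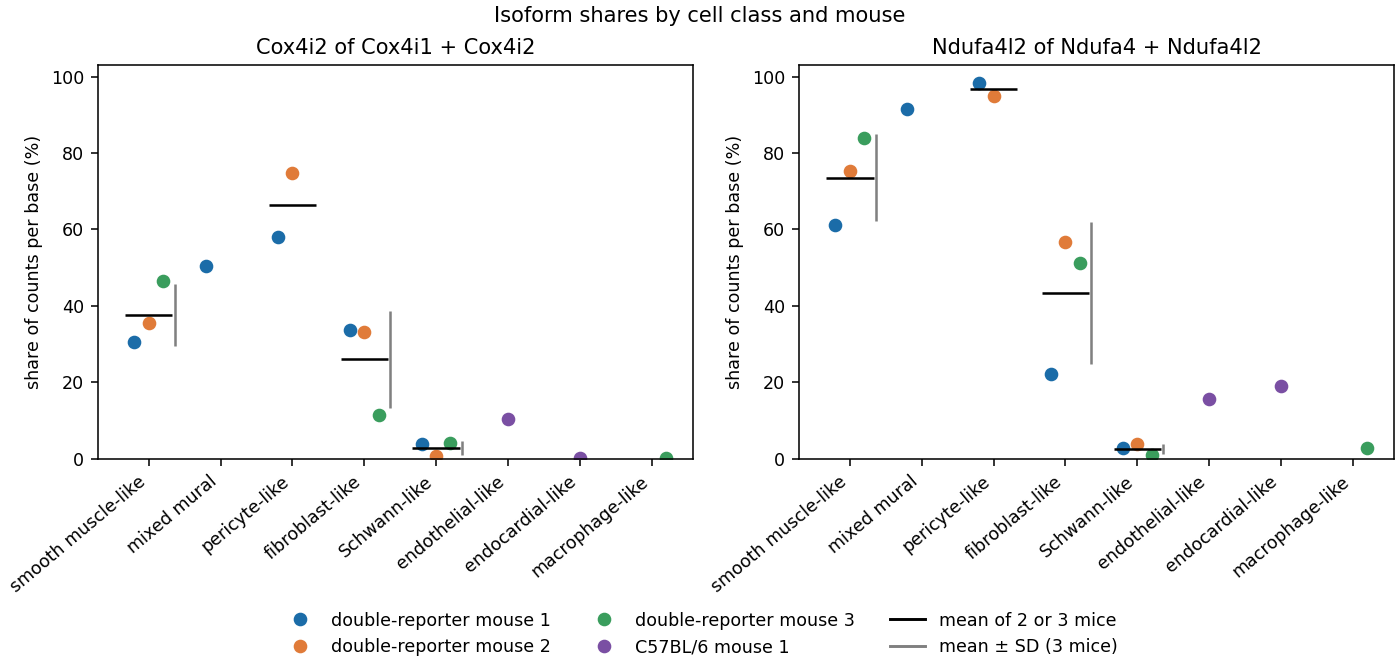
Share of counts per base (y axis, percent) held by Cox4i2 within the Cox4i pair and by Ndufa4l2 within the Ndufa4 pair, by cell class (x axis). Points are mice, black lines means of 2 or 3 double-reporter mice, grey bars mean ± SD of 3. Pericyte-like cells are highest in both panels and Schwann-like cells are under 5% in both.

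In pericyte-like cells the 2 isoforms were found in the same cells. At 100 CPM or more, both Cox4i1 and Cox4i2 were present in 42 of 51 cells of mouse 1 and 13 of 15 of mouse 2, and Cox4i2 without Cox4i1 in 6 and 2 cells. In smooth muscle-like cells both were present in 79 of 131, 50 of 80 and 18 of 20 cells, and Cox4i1 alone in 49, 27 and 2. In fibroblast-like cells Cox4i1 alone was found in 37 of 81, 62 of 112 and 201 of 249 cells of mice 1 to 3 and was the most frequent state in mice 2 and 3, while both were found in 41, 40 and 29 cells. A fibroblast-like cell of mouse 3 had a median of 0.0 CPM of Cox4i2, against 125 and 29.7 CPM in mice 1 and 2. In Schwann-like cells Cox4i2 reached 100 CPM in 2 of 33, 0 of 12 and 2 of 16 cells, and 1 cell gave 60.4% of its counts in mouse 3. In mouse 2 the 0 of 12 cells still allow a share of up to 25% of cells at that level.

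Pericyte markers were counted beside Cox4i2. They summed to 272, 307 and 179 CPM in fibroblast-like cells and to between 7.78 and 47.5 CPM in Schwann-like cells, against 12383 and 13768 CPM in pericyte-like cells. The fibroblast-like sum of Cox4i2 was 221 and 138 CPM in mice 1 and 2, from 68 of 81 and 71 of 112 cells with a count. In mouse 3 it was lower. The part of pericyte RNA in these values was not tested.

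The Ndufa4 pair followed a similar order. Ndufa4l2 held 98.3% and 95.1% of the pair's counts per base in pericyte-like cells, 61.3%, 75.4% and 83.9% in smooth muscle-like cells, 22.1%, 56.8% and 51.2% in fibroblast-like cells and 2.69%, 3.86% and 1.04% in Schwann-like cells. The shares of these 4 classes did not overlap, and the highest fibroblast-like share lay just below the lowest smooth muscle-like one. The share was 91.4% in the mixed mural class, 15.6% in endothelial-like and 18.9% in endocardial-like cells. Ndufa4l2 had 1151 and 1239 CPM in pericyte-like cells, 406, 519 and 958 CPM in smooth muscle-like cells, 56.1, 93.0 and 156 CPM in fibroblast-like cells and 4.95, 4.50 and 1.95 CPM in Schwann-like cells. It was higher in smooth muscle-like (log2 change 2.70, SE 0.46, adjusted p = 0.0160) and in pericyte-like cells (3.82, SE 0.53, adjusted p = 0.00807) than in fibroblast-like cells, and lower in Schwann-like cells (-4.49, SE 0.52, adjusted p = 0.00123). It was the only one of 10 hypoxia-responsive genes called in any of these 3 comparisons.

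Ndufa4 itself was low in pericyte-like cells. It reached 100 CPM in 3 of 51 and 1 of 15 of them, and the median cell had 0.0 CPM in both mice. In the other classes the values were 167, 111 and 120 CPM in smooth muscle-like, 130, 46.2 and 96.9 CPM in fibroblast-like and 117, 73.2 and 121 CPM in Schwann-like cells, so that those 3 classes overlapped. No comparison of Ndufa4 passed the test, with adjusted p-values from 0.254 to 0.902. After thinning every cell to 50000 counts, Ndufa4 was still detected in 7 of 51 and 3 of 15 pericyte-like cells, against 104 of 131 and 74 of 80 smooth muscle-like cells of the same mice.

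Within single cells, the 2 paralogues of Ndufa4 were not exclusive in smooth muscle-like cells. Of 131 cells in mouse 1, 35 had both at 100 CPM or more, 47 had Ndufa4 alone, 35 had Ndufa4l2 alone and 14 had neither. In mouse 2 these numbers were 26, 16, 26 and 12 of 80, and in mouse 3 they were 4, 3, 12 and 1 of 20. Ndufa4l2 and Cox4i2 were both present in 47 of 51 and 14 of 15 pericyte-like cells and in 62 of 131, 45 of 80 and 16 of 20 smooth muscle-like cells. In fibroblast-like cells both were present in 2 of 81, 6 of 112 and 14 of 249, where Cox4i2 alone was found in 40, 37 and 19 cells and Ndufa4l2 alone in 8, 21 and 104.

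Cox7a2l separated the classes in another way. Its level was 286, 225 and 338 CPM in smooth muscle-like, 256, 210 and 199 CPM in fibroblast-like, 145 and 78.4 CPM in pericyte-like and 82.9, 92.5 and 63.4 CPM in Schwann-like cells. It was 361 CPM in endothelial-like, 443 CPM in endocardial-like and 232 CPM in macrophage-like cells, which had no replicate. Pericyte-like and Schwann-like cells overlapped, and both lay below the smooth muscle-like and fibroblast-like cells. The endothelial-like and endocardial-like cells came from C57BL/6 mouse 1 on another plate, so class, strain and plate cannot be told apart for them. The median cell had 5.81 and 0.0 CPM in pericyte-like cells and 2.06, 2.00 and 5.38 CPM in Schwann-like cells, whereas a smooth muscle-like cell had a median of 256, 200 and 426 CPM. The gene (ENSMUSG00000024248) lies at chr17:83501918-83517330 on the minus strand. A stretch of 342 bases is 97.95% identical to the gene model Gm6969, which had 285 counts in all cells against 99124 for Cox7a2l.

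**Figure D4:**
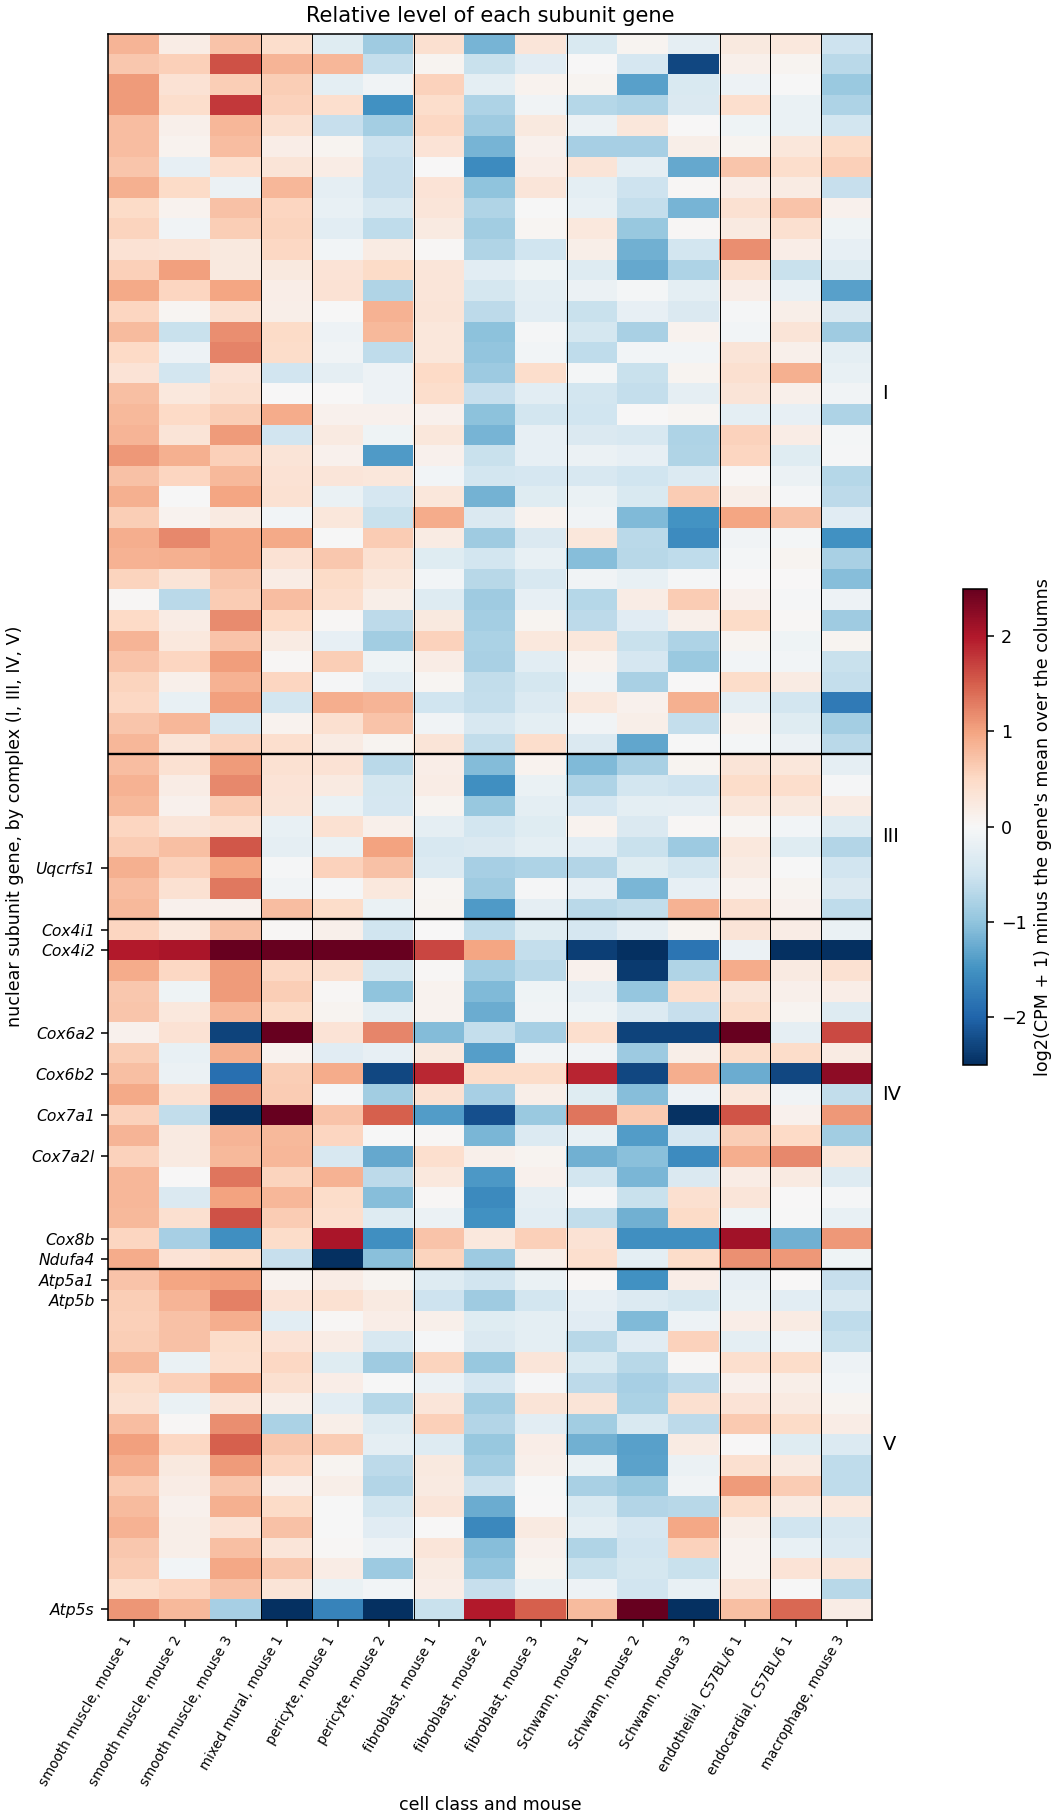
Relative level of each of the 77 genes (rows, by complex) in each sum of a cell class and mouse (columns), with some genes labelled, as log2(CPM + 1) minus the gene's mean over the columns; the colour scale ends at 2.5 in both directions. Red rows across the smooth muscle-like columns appear in all 4 complexes, while Cox4i2 and the weakly detected Cox6a2, Cox6b2, Cox7a1, Cox8b and Atp5s depart from the rest.

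The muscle isoforms of complex IV had low levels in smooth muscle-like cells. Cox6a2, Cox7a1 and Cox8b together had 14.8, 8.62 and 0 CPM in smooth muscle-like cells of mice 1 to 3. Cox6a2, Cox7a1 and Cox8b had 183, 299 and 133 counts in mouse 1, 86, 41 and 10 in mouse 2 and 0 in mouse 3. A count of 0 in mouse 3 allows up to 0.939 CPM per gene (3 counts). They had 24.4 and 25.2 CPM in pericyte-like, 6.21, 4.98 and 7.05 CPM in fibroblast-like and 21.4, 7.71 and 0 CPM in Schwann-like cells. The widespread partners Cox6a1, Cox7a2 and Cox8a together had 1056, 771 and 1430 CPM in smooth muscle-like cells and between 245 and 769 CPM in the other 3 classes. None of the 3 muscle isoforms passed the test in any of the 5 comparisons. Their fitted changes had standard errors between 1.78 and 3.25.

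Cardiomyocyte markers were counted beside the muscle isoforms. Summed over 10 cardiomyocyte markers, the level was 962 CPM in endothelial-like cells, where the 3 isoforms had 65.1 CPM, and 506 CPM in the mixed mural class, where they had 64.8 CPM. In macrophage-like cells the values were 525 and 30.5 CPM. In smooth muscle-like cells of mice 1 to 3, 714, 528 and 264 CPM of markers stood beside 14.8, 8.62 and 0 CPM of isoforms. In the 3 cardiomyocyte-like cells the markers had 26972 CPM and the isoforms 1033 CPM, with 48.2% of the Cox6a pair held by Cox6a2, 76.1% of Cox7a1 and Cox7a2 by Cox7a1, and 80.9% of the Cox8 pair by Cox8b. In endothelial-like cells those shares were 8.28%, 13.7% and 6.77%. The part of cardiomyocyte RNA in these values was not tested.

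**Figure D5:**
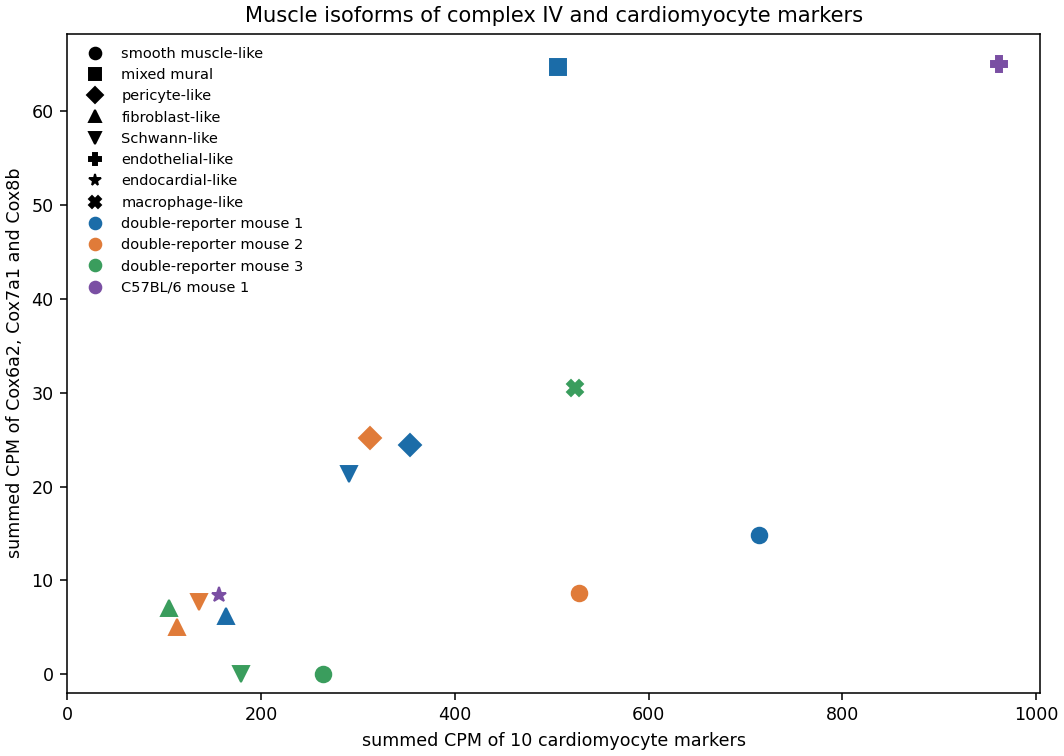
Summed CPM of the muscle isoforms Cox6a2, Cox7a1 and Cox8b (y axis) against the summed CPM of 10 cardiomyocyte markers (x axis), 1 point per cell class (shape) and mouse (colour), without the 3 cardiomyocyte-like cells. The endothelial-like and mixed mural sums are highest at 65.1 and 64.8 CPM, and the 3 smooth muscle-like sums lie at or below 14.8 CPM.

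The other isoform families were less clearly separated. Cox6b2, known from testis, held 3.18%, 2.60% and 0.12% of the Cox6b pair in smooth muscle-like cells and 8.98%, 9.32% and 4.04% in fibroblast-like cells, at 16.9, 5.67 and 5.69 CPM in the latter. These shares did not overlap, but the gene was weakly detected and not called in any of the 5 comparisons. Of the 3 c-ring genes Atp5g3 held 72.9% ± 1.6 (SD, n = 3) of the counts per base in smooth muscle-like, 71.7% in pericyte-like (n = 2), 62.2% ± 9.6 in fibroblast-like and 60.5% ± 12.6 in Schwann-like cells (n = 3 each). The share in smooth muscle-like cells (71.1% to 74.2%) lay above that in fibroblast-like cells (51.9% to 70.9%) by little and overlapped that of Schwann-like cells (51.1% to 74.8%). The values depend on the transcript length used, which was 4715 bases for Atp5g1 and 723 for Atp5g3. By counts alone Atp5g3 held 56.4% to 62.0% in smooth muscle-like cells (mean 59.1%). It then held 35.7% to 48.9% in fibroblast-like and 29.0% to 50.2% in Schwann-like cells, and neither range overlapped that of smooth muscle-like cells. Atp5s had 15.9, 12.8 and 3.44 CPM in smooth muscle-like and 1.48 and 0 CPM in pericyte-like cells and gave the largest log2 change, uncalled, in both pericyte comparisons. It falls outside the rule for named genes and is named here because its values stand apart.

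Promoters were searched for 5 short motifs on both strands in the 250 bases before each gene's start. RefSeq windows (GRCm38.p6) were found for 64 of the 77 genes. Of these, 5 had 2 windows, and a gene was counted if any of its windows matched. The core of the NRF1 site, CGCANGCG, was present for 16 of the 64 genes (25%) against 7.65% of all 27025 genes. The core of the ETS and GABPA site, CCGGAAG, was present in 11 (17.2%) against 7.83%. NRF1 and GABPA are known as regulators of respiratory chain genes. AAGATGGC of YY1 was present for 1 gene (1.56%) against 1.83%, and TGGGAA of RBPJ for 13 (20.3%) against 24.1%. ACGTG, the core of the hypoxia response element, was present for 14 (21.9%) against 18.5%. A match describes letters only and is not a binding site.

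The 250 bases before the start of 2 complex IV genes are shown as examples of a window with several matches and one with a single match, in capitals. Cox6a1 (chr5:115348959-115349208, minus strand) had 2 places with the NRF1 core and 1 with the ETS core. Cox8b (chr7:140900447-140900696, minus strand) had neither and had 1 ACGTG on the opposite strand. The windows of Cox7a1, Cox7a2 and Cox8a also held neither core.
Cox6a1: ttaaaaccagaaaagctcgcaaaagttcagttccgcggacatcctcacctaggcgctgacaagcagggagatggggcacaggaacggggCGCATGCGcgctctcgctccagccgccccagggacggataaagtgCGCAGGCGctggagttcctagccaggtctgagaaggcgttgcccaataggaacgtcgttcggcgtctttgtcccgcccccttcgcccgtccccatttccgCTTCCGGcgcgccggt
Cox8b: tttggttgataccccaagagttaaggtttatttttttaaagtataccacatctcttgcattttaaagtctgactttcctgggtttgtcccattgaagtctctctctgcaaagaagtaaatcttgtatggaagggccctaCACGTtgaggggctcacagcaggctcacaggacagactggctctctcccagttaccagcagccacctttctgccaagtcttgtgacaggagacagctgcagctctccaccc
Genes for which no RefSeq window was used included Atp5a1, Atp5mpl, Cox4i1, Cox4i2, Cox6a2, Cox6c, Ndufa2, Ndufb9, Ndufs1, Uqcrb, Uqcrc2 and Uqcrq.

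Sequence shared with other genes limits some levels. Of the 77 genes, 29 had a stretch of at least 100 bases at 97% identity or more in the transcript of another gene, covering 92.0% of Atp5o, 88.2% of Atp5g2 and 64.6% of Atp5f1. Exons of 26 of the 77 overlap another gene, as those of Cox4i1 overlap Emc8, and whether the counting used strand is not given in the sources used here, so reads in these overlaps could be assigned to either gene.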

How the data were processed

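Raw read counts per gene and cell were deposited by the authors as 1 table, and all values here start from those counts. Per the submitters' processing notes the tools were bcl2fastq, Bowtie, Bowtie2, Subread and featureCounts, on mouse build GRCm38 (mm10). Tool versions, the strand setting and the treatment of duplicate reads are not given in the sources used here.

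CPM is a gene's share of a cell's or sum's counts. Counts were summed per mouse and class where a class had at least 10 cells, because cells are not replicates. The 11 sums of smooth muscle-like, pericyte-like, fibroblast-like and Schwann-like cells in 3 double-reporter mice were fitted together with edgeR 4.0.16 (R 4.3.3; TMM scaling, low-count filter, quasi-likelihood test, Benjamini-Hochberg adjustment over all genes tested, threshold 0.05). Mouse was a block, since classes of a mouse come from the same animal and plate. Deviations from the class means correlated between the smooth muscle-like and fibroblast-like sums of a mouse at r = 0.0916, 0.345 and 0.171. The other classes were not compared in this way. DESeq2 1.42.0 and the other settings in the closing section were alternatives. No doublet caller was run, since cells were sorted singly. The edgeR script was tested on simulated data. Levels between genes are compared per kilobase of transcript.

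The genes and lists were chosen with earlier results of these data known. Named genes are isoform families, Ndufa4l2, the 3 highest of each complex, the 5 largest calls each way and up to 2 calls per list. One gene that these rules would name is not reported here.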

Additional observations from a re-analysis of the deposited data

How the results depend on the processing

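The number of the 77 genes called depended on the processing. How many of all tested genes each alternative called is not given here. The counts below therefore describe the settings and are no measure of an excess or a lack among the 77 genes. In smooth muscle-like against pericyte-like cells, where none was called, DESeq2 called 3, and 1 each was called with the 2 classes alone in the fit, with Leiden clusters and with cells thinned to 50000 counts. In smooth muscle-like against fibroblast-like cells, with 4 calls, there were 2 without the low-count filter, 22 by DESeq2, 0 in cells low in cardiomyocyte markers and 0 to 1 without 1 mouse. In pericyte-like against fibroblast-like cells, with no call, there was 1 with DESeq2 size factors and 1 with the 2 classes alone, 10 by DESeq2, and 2 each with at least 5 cells per sum, Leiden clusters or thinning. In Schwann-like against fibroblast-like cells, with 2 calls, there was 1 without the filter, with DESeq2 size factors or with at least 5 cells. DESeq2 gave 4, and there were 0 with the 2 classes alone, at least 20 cells, the stricter class rule, cells of at least 100000 counts or low cardiomyocyte markers, and 0 to 1 without 1 mouse. In Schwann-like against smooth muscle-like cells, with 14 calls, there were 9 without the filter, 8 with DESeq2 size factors, 30 by DESeq2, 2 with the 2 classes alone, 0 with at least 20 cells, 7 with at least 5, 9 under the stricter rule, 4 at 100000 counts, 25 after thinning, 0 in cells low in cardiomyocyte markers and 0 to 2 without 1 mouse. Without the replicate block, 9 of the 77 genes were called in that comparison and 3 in smooth muscle-like against fibroblast-like cells. The cause of these differences was not tested. Over the single genes, 1927 of 2099 alternative values stayed on the same side of the threshold. Another 135 lost the call, 37 gained a call and none reversed a call. Most of these values belong to genes not called in the main fit. For named genes called there, the call was kept in 3 to 13 of 15 alternatives. In smooth muscle-like against fibroblast-like cells it was kept in 13 for Atp5b, 8 for Cox8a and 7 for Uqcrfs1. In Schwann-like against fibroblast-like cells it was kept in 8 for Cox4i2 and 4 for Cox7a2l. Direction was compared only where the main or the alternative fit called the gene. DESeq2 size factors moved the median of all genes from 0.38 to 0.25 in smooth muscle-like against pericyte-like cells and from -0.60 to -0.49 in Schwann-like against fibroblast-like cells.

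By counts alone, Atp5g3 held 59.1%, 57.2%, 43.6% and 38.3% of its family in smooth muscle-like, pericyte-like, fibroblast-like and Schwann-like cells, and Cox8b 1.96% of its pair in fibroblast-like cells. In endothelial-like cells the shares were 9.89% for Cox4i2, 22.03% for Ndufa4l2, 9.70% for Cox6a2, 8.65% for Cox7a1 and 4.54% for Cox8b. Leaving mitochondrially encoded genes out of CPM, or thinning, gave sums of 8490 and 8047 CPM in macrophage-like, 12749 and 12205 CPM in endothelial-like and 11590 and 11280 CPM in endocardial-like cells. Depth limits weakly detected genes: 3 counts are 0.939 CPM in the smooth muscle-like sum of mouse 3 and 1.93 CPM in the Schwann-like sum of mouse 2.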
